A study of Homo sapiens with 54 samples.

Results

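This report describes 35 p53 target genes, taken by name from the 4 deposited expression tables, each of which holds 55906 gene rows. All 35 names were found in every table. They were followed gene by gene across 18 conditions, and A549 was compared with the other 3 cell lines after loss of *TRA2A*, *TRA2B* or both. *TRA2A* and *TRA2B* encode paralogous RNA-binding proteins that regulate exon inclusion. RNA-seq libraries of 3 replicates per condition (54 in all) were made from 4 human cancer cell lines. A549 and NCI-H23 are lung adenocarcinoma lines that stably carried Zim3-dCas9, a nuclease-dead Cas9 fused to a repressor domain that silences the promoter to which a guide brings it, and they received control guides (Control KD), *TRA2A* guides (*TRA2A* KD), *TRA2B* guides (*TRA2B* KD) or both (*TRA2A/B* DKD). LN229 and LN319 are glioma lines that received Cas9 together with the guides. One set of these cells made luciferase (Luc) and received guides against control loci (Control KO), *TRA2A* (*TRA2A* KO) or *TRA2B* (*TRA2B* KO), and another set overexpressed *TRA2B* (TRA2B-OE) and received the control or the *TRA2A* guides. The knockout cells were guide-transduced populations, and the glioma and lung lines were collected at different times after transduction, so line, method and time cannot be told apart between them. No label says that the 3 replicates came from separate cultures, and p-values then measure only the spread between these libraries, which may be technical.

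The transcription factor p53 binds pairs of short half-sites near its target genes and raises their transcription after DNA damage, nucleolar stress or other insults. Its targets stop the cell cycle, promote apoptosis, support DNA repair and metabolism, and, through *MDM2*, limit p53 itself. Many p53 targets also have other activators, among them the stress factors ATF4 and CHOP.

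The sequences below are letters around the gene starts that matched the p53 consensus, and they are shown because p53 recognises such letters. The search covered 3000 bases on either side of the gene start (hg38, Gencode v44) and asked for 2 half-sites of 10 bases, each 3 purines, C, 2 bases of A or T, G and 3 pyrimidines, with 0 or 1 base between them. The pattern reads the same on both strands. A complete match lay near 3 of 35 genes (8.57%) and near 28 of 20020 protein-coding genes (0.14%). With 1 letter off the consensus outside the cores, a setting chosen after seeing the data, the shares were 6 of 35 (17.1%) and 209 of 20020 (1.04%). Sequences are given 5′ to 3′ on the strand of the gene, with the core of each half-site in capitals.
ZMAT3, complete, chr3:179070188-179070207, intron, minus strand: aaaCAAGtccagaCATGcct
PLK2, complete, chr5:58462274-58462293, upstream, minus strand: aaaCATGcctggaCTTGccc
DDB2, complete with 1 base between the half-sites, chr11:47214979-47214999, UTR exon, plus strand: gaaCAAGccctgggCATGttt
GADD45A, 1 letter off, chr1:67686775-67686794, intron, plus strand: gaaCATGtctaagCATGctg
CCNG1, 1 letter off, chr5:163437926-163437945, intron, plus strand: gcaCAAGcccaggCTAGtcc
The sixth gene, *RRM2B*, had a site in an intron. A match is a description of letters and not evidence of binding, and the absence of one says only that these letters do not stand in this window.

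Values are TPM (transcript abundance scaled to a fixed total per library) as deposited. They keep no record of read depth, so the precision of a value is given as the spread of its 3 libraries. A log2 fold change is on the log2(TPM + 0.1) scale after scaling of the libraries of a line to each other, is given ± its standard error, and understates the change of very low genes. A gene was tested in a line where it reached 1 TPM in at least 4 libraries, and called changes are those whose p, adjusted for all genes in the comparison, was under 0.05. All 35 genes were tested in A549, 34 in NCI-H23 (all but *TP53INP1*), 33 in LN229 (all but *SPATA18* and *TNFRSF10A*) and 33 in LN319 (all but *SPATA18* and *PMAIP1*).

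*TRA2A* and *TRA2B* followed the labels in the lung lines. In A549, *TRA2A* mRNA fell to 9.56% of control in *TRA2A* KD and to 13.9% in the DKD, and *TRA2B* mRNA to 9.68% in *TRA2B* KD and to 16.3% in the DKD. In NCI-H23 the same values were 6.54%, 20.5%, 10.6% and 25.2%. Knockout left more mRNA, with *TRA2A* at 62.9% of control in LN229 and 33.2% in LN319, and *TRA2B* at 66.0% and 35.1%, and a knockout of the protein need not lower the mRNA. A549 Control KD replicate 3 stood apart from the other A549 libraries (median correlation with them 0.837, the lowest of the 54), and the counts without it are given below. Of 10 epithelial markers, 7 reached 1 TPM in the A549 controls and 6 in the NCI-H23 controls, while of 4 lung lineage markers 1 and 0 did. Of 10 glial and neural markers, 9 reached it in LN229 and 6 in LN319, where 8 of 10 epithelial markers also did. In A549 and in NCI-H23 4 of the 10 glial and neural markers reached it, and in LN229 4 of 10 epithelial markers. Of the 4 lung lineage markers 0 reached it in LN229 and 1 in LN319. That 1 was *NKX2-1*, at 6.92 to 9.13 TPM in LN319, against 0 in A549 and 0.63 to 0.89 in NCI-H23. *S100B*, *OLIG2*, *BCAN* and *FABP7* had means under 1 TPM in LN319. LN229 Luc Control KO replicate 1 held more of some glial markers than the other 2 controls, with *S100B* at 834 against 276 and 255 TPM, *FABP7* at 191 against 60.5 and 53.8 and *PTPRZ1* at 81.1 against 30.8 and 37.6. Without this library LN229 *TRA2B* KO called 11 targets rather than 4, and other counts without it are given below. The part of the marker difference itself in the LN229 results was not tested.

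The control libraries showed where each target started. The p53 targets were highest in LN229 for 18 of 35 genes, in A549 for 13, in LN319 for 4 and in NCI-H23 for 0, while over 18011 genes the highest line was LN229 for 30.8%, A549 for 16.9%, LN319 for 39.3% and NCI-H23 for 13.1%. The lowest line was NCI-H23 for 17 targets, LN319 for 15, LN229 for 2 and A549 for 1, against 39.2%, 14.97%, 13.9% and 31.9% of all genes. Levels of different lines come from separate tables and are a description without a test. The 3 A549 control libraries lay above all 9 control libraries of the other lines for 9 targets (*BAX*, *TP53I3*, *XPC*, *TNFRSF10A*, *TNFRSF10B*, *FDXR*, *SPATA18*, *TRIAP1* and *CYFIP2*), against 6.58% of all genes. They lay below all of them for *GADD45A* alone, against 11.5% of all genes.

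Among these genes was *TP53I3*, which encodes a quinone oxidoreductase that responds to p53 through a repeat in its promoter. Its A549 controls held 208, 219.9 and 156 TPM, against 13.6, 13.6 and 14.9 in NCI-H23, 33.6, 25.1 and 26.2 in LN229 and 12.3, 11.5 and 10.8 in LN319. *CDKN1A*, the gene of the CDK inhibitor p21 (chr6:36676460-36687337), held 154, 184 and 161 TPM in A549, 74.6, 96.4 and 88.1 in NCI-H23, 329, 330.3 and 312 in LN229 and 36.4, 35.8 and 32.0 in LN319. It was thus highest in LN229, and none of the 4 lines overlapped. *MDM2* (chr12:68808177-68845544), whose product is the ubiquitin ligase of p53, held 82.6, 64.2 and 182 TPM in A549, where replicate 3 was the high one, 61.3, 52.6 and 66.0 in NCI-H23, 217, 209 and 212 in LN229 and 44.5, 41.8 and 44.4 in LN319. The *MDM2* values of A549 and NCI-H23 overlapped, and those of A549 and LN229 did not.

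**Figure D1:**
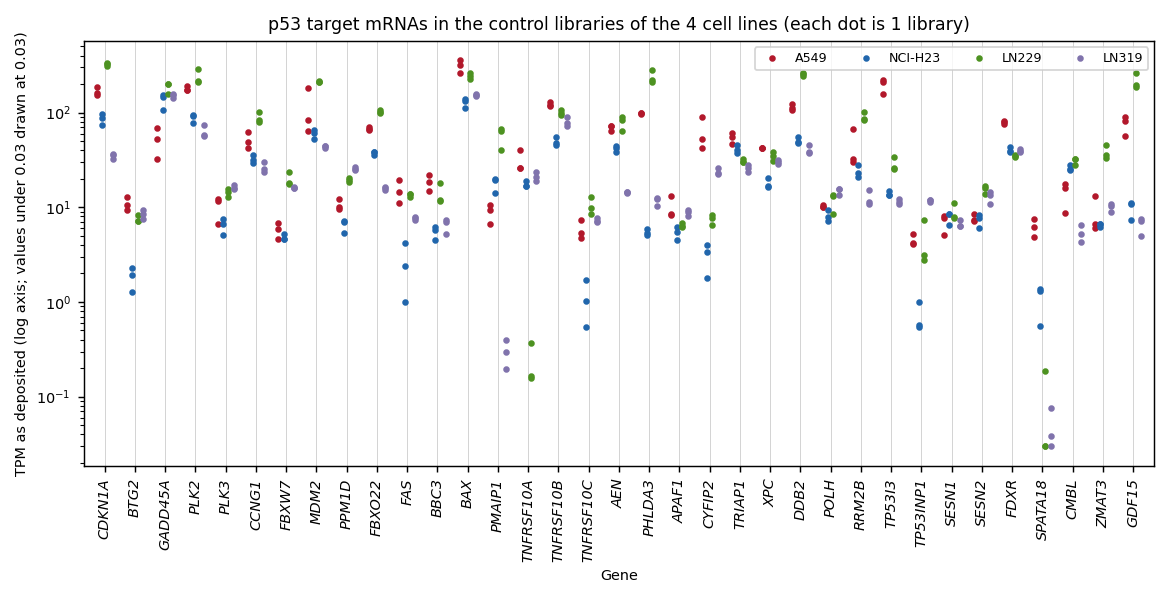
TPM on a log axis (y) of the 35 p53 targets (x) in the 12 control libraries, coloured by cell line, with each dot 1 library. *TP53I3* stands far higher in A549 than in the other lines, and *CDKN1A* is highest in LN229 and lowest in LN319.

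The double knockdown raised most p53 targets in both lung lines. In RNA from a whole culture, more cells that express a gene and more RNA per cell cannot be told apart. In A549, 29 of 35 rose and 0 fell, where 30.6% of all genes were called (14.3% rose), and the fold change was above 0 for all 35. In NCI-H23, 25 of 34 rose and 2 fell, where 43.2% of all genes were called (20.0% rose). The median log2 fold change of the targets was 1.22 in A549 and 1.02 in NCI-H23, against 0.03 and 0.02 over all genes tested. The 3 DKD libraries lay above the 3 controls for 30 of 35 targets in A549 (23.8% of all genes tested) and for 28 of 35 in NCI-H23 (33.1%), with the untested *TP53INP1* counted among the 28. Leaving out any 1 library gave 26 to 27 calls in NCI-H23 and 28 to 30 in A549, with 30 when Control KD replicate 3 was the library omitted.

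Of 34 targets tested in both lines, 22 rose in both, 6 rose in A549 and were not called higher in NCI-H23, 3 the reverse (*TP53I3*, *CYFIP2* and *APAF1*) and 2 were called in neither (*BAX* and *CMBL*). *DDB2* fell in NCI-H23 and was not called in A549, and *PLK2* rose in A549 and fell in NCI-H23. The test of the difference between the lines called 14 of 34 targets, where it called 12.2% of all genes, and 16 without A549 Control KD replicate 3. The log2 fold change was higher in A549 for *GADD45A*, *PMAIP1*, *AEN*, *PPM1D*, *PLK2*, *TRIAP1*, *TNFRSF10A*, *BBC3*, *XPC* and *DDB2* (10 genes, where 6.77% of all genes were called in that direction). It was higher in NCI-H23 for *TP53I3*, *GDF15*, *SESN2* and *PHLDA3* (4 genes, 5.39% of all genes). Across the 34 genes the fold changes of the lines had a Pearson correlation of 0.469, given as a description, since the genes share libraries. Differences below are written as A549 minus NCI-H23.

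**Figure D2:**
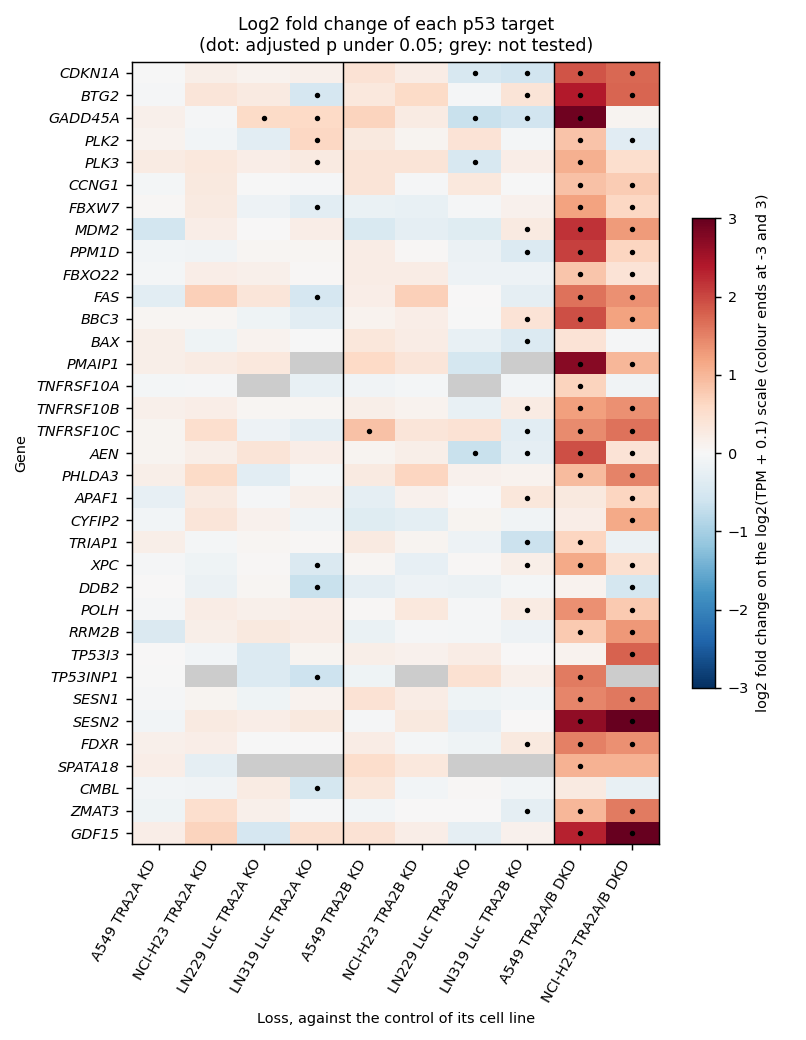
Log2 fold change (colour, on the log2(TPM + 0.1) scale) of the 35 p53 targets (rows) in 10 comparisons of *TRA2* loss with its control (columns), with black dots at an adjusted p under 0.05 and grey where a gene was not tested. The right columns, the double knockdowns, are mostly red with 29 and 25 rises, and the single losses are pale.

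**Figure D3:**
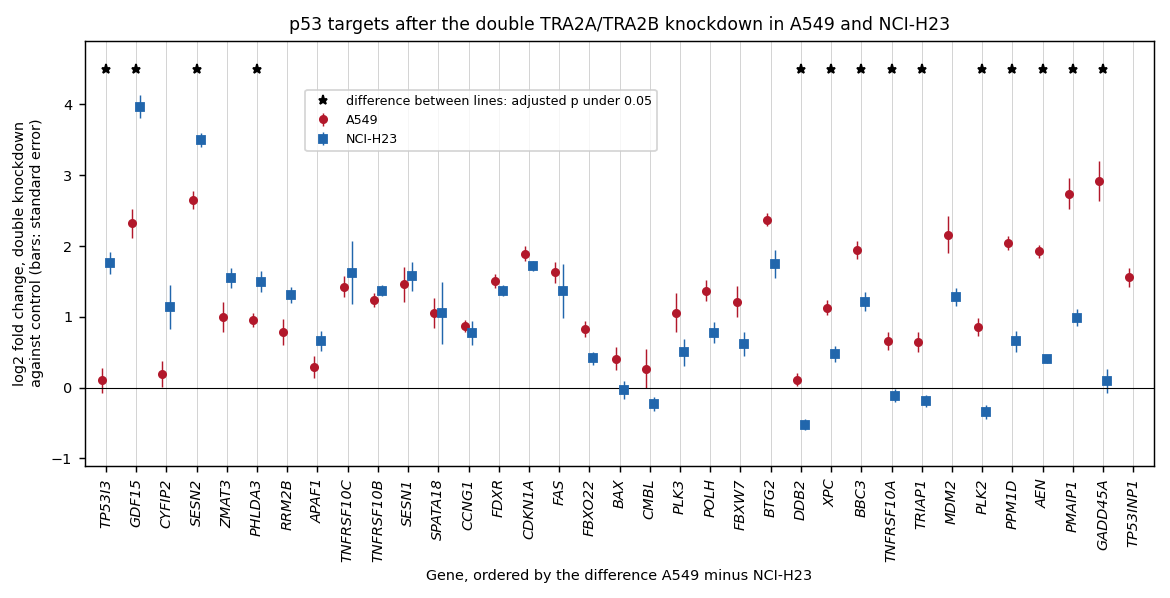
Log2 fold change ± standard error (y) of each p53 target (x) in the double knockdown of A549 (circles) and NCI-H23 (squares), ordered by the difference of the lines, with stars at the 14 genes where that difference had an adjusted p under 0.05. *TP53I3* and *GDF15* lie at the NCI-H23 end and *GADD45A*, *PMAIP1* and *AEN* at the A549 end, while *TP53INP1* was tested in A549 alone.

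Among the 7 genes of cell cycle arrest, 7 rose in A549, and in NCI-H23 4 rose and 1 fell. *CDKN1A* held 612, 649 and 696 TPM in the A549 DKD (log2 fold change 1.89 ± 0.11, adjusted p = 1.36e-06) and 332, 287 and 331 TPM in the NCI-H23 DKD (log2 fold change 1.72 ± 0.07, adjusted p = 5.27e-08), starting from the control values above. Every DKD library was above every control in its line. The difference between the lines was 0.17, with a 95% interval of -0.10 to 0.45 (adjusted p = 0.436). *GADD45A*, which encodes a stress protein that binds cyclin-dependent kinase 1 and PCNA, behaved otherwise. Its A549 libraries went from 52.5, 68.2 and 32.7 TPM in the controls to 349, 383 and 449 in the DKD (log2 fold change 2.92 ± 0.28, adjusted p = 3.23e-05). Its NCI-H23 libraries held 106, 155 and 147 TPM in the controls and 184, 129 and 172 in the DKD and overlapped (log2 fold change 0.09 ± 0.17). The difference of 2.82 ± 0.35 (adjusted p = 2.49e-05) was the largest of the 34. The A549 DKD libraries lay above every NCI-H23 DKD library, although A549 had started below NCI-H23.

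*PLK2*, a polo-like kinase gene, rose in A549 from 172, 192 and 175 to 341, 338 and 351 TPM (log2 fold change 0.86 ± 0.13, adjusted p = 0.000604). In NCI-H23 it went from 78.3, 93.9 and 91.3 to 81.7, 65.7 and 84.7 TPM, with overlap between the groups in TPM as deposited. The fall there (log2 fold change -0.34 ± 0.10, adjusted p = 0.0176) was lost without Control KD replicate 2 or 3, or without *TRA2A/B* DKD replicate 2 (adjusted p 0.0524 to 0.0754) and with the TPM as deposited or quantile normalization. The difference between the lines was 1.20 ± 0.17 (adjusted p = 8.21e-05). *BTG2*, an antiproliferative gene, rose in A549 (log2 fold change 2.37 ± 0.10, adjusted p = 2.2e-07) and NCI-H23 (log2 fold change 1.75 ± 0.20, adjusted p = 5.2e-05), and *CCNG1*, the cyclin G1 gene, rose by 0.87 (adjusted p = 3e-05) and 0.77 (adjusted p = 0.00299). *FBXW7*, a substrate receptor of a ubiquitin ligase, rose by 1.22 (adjusted p = 0.0016) in A549 and 0.62 (adjusted p = 0.0107) in NCI-H23. *PLK3* rose in A549 (log2 fold change 1.06 ± 0.28, adjusted p = 0.0153), a call lost without *TRA2A/B* DKD replicate 3 (adjusted p = 0.0514) and when no other group entered the fit, and its value in NCI-H23 was 0.50 (adjusted p = 0.0539).

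All 3 genes of negative feedback on p53 rose in both lines. *MDM2* held 576, 407 and 432 TPM in the A549 DKD (log2 fold change 2.16 ± 0.26, adjusted p = 0.000135) and 144, 169 and 174 TPM in the NCI-H23 DKD (log2 fold change 1.28 ± 0.13, adjusted p = 2.27e-05). Each DKD library was above the controls of its line, including the high A549 control replicate 3. The difference of 0.88 (95% interval 0.23 to 1.52) was not called (adjusted p = 0.0702). *PPM1D*, which encodes the p53 phosphatase WIP1, went from 9.96, 9.48 and 12.2 to 45.8, 47.3 and 45.0 TPM in A549 (log2 fold change 2.04 ± 0.10, adjusted p = 9.05e-07). In NCI-H23 it went from 6.95, 7.24 and 5.33 to 10.4, 11.0 and 12.8 TPM (log2 fold change 0.65 ± 0.14, adjusted p = 0.00385), and the difference of 1.39 ± 0.17 (adjusted p = 2.67e-05) was called. *FBXO22*, an F-box gene, rose by 0.83 (adjusted p = 0.000283) in A549 and 0.42 (adjusted p = 0.00412) in NCI-H23.

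**Figure D4:**
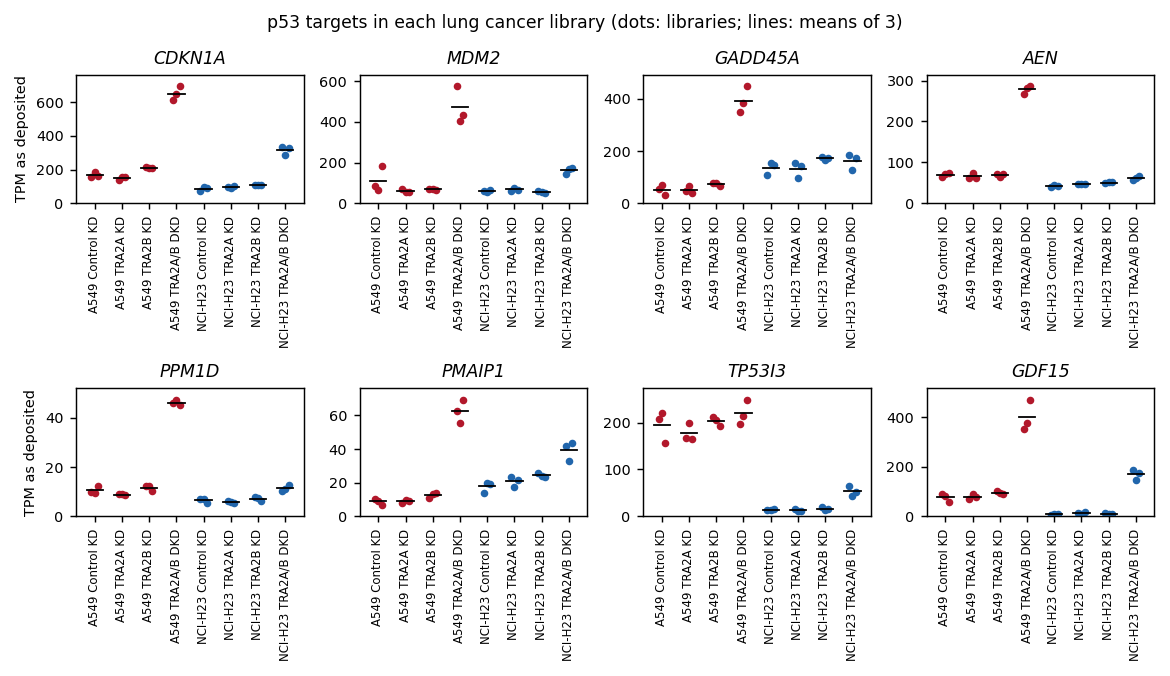
TPM as deposited (y, from 0) of 8 p53 targets in each of the 24 lung cancer libraries by condition (x), with dots for libraries and lines for means of 3. The double knockdown libraries of *CDKN1A*, *MDM2*, *PPM1D*, *PMAIP1*, *AEN* and *GDF15* stand above their controls in both lines, *GADD45A* does so in A549 and *TP53I3* in NCI-H23.

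Of the 12 genes of apoptosis, 9 rose in A549 and 9 in NCI-H23, and 0 fell. *PMAIP1*, which encodes the BH3-only protein NOXA, started at 10.5, 9.45 and 6.70 TPM in A549 and reached 62.7, 55.7 and 69.5 (log2 fold change 2.74 ± 0.21, adjusted p = 7.73e-06). In NCI-H23 it went from 14.1, 19.8 and 19.6 to 41.6, 33.1 and 43.5 TPM (log2 fold change 0.99 ± 0.12, adjusted p = 9.4e-05), and the difference was 1.75 ± 0.26 (adjusted p = 0.000135). The groups did not overlap in either line. *AEN*, an exonuclease gene named for enhancing apoptosis, went from 64.0, 71.8 and 72.8 to 266, 283 and 286 TPM in A549 (log2 fold change 1.92 ± 0.09, adjusted p = 3.77e-07). In NCI-H23 it went from 38.4, 43.8 and 42.4 to 57.4, 60.4 and 65.6 TPM (log2 fold change 0.40 ± 0.06, adjusted p = 0.000238). Its difference of 1.52 ± 0.10 (adjusted p = 1.17e-08) had the smallest adjusted p of the targets. *BBC3*, which encodes the BH3-only protein PUMA, went from 14.7, 18.3 and 22.0 to 71.1, 73.8 and 76.6 TPM in A549 (log2 fold change 1.94 ± 0.12, adjusted p = 2.36e-06) and from 4.57, 5.78 and 6.19 to 14.6, 13.5 and 14.6 in NCI-H23 (log2 fold change 1.21 ± 0.13, adjusted p = 3.93e-05). Its difference of 0.73 ± 0.18 (adjusted p = 0.0103) was lost with the TPM as deposited.

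Of the TRAIL receptor genes, *TNFRSF10A* differed between the lines. This death receptor gene went from 25.9, 26.1 and 40.7 to 52.6, 50.6 and 48.3 TPM in A549 (log2 fold change 0.66 ± 0.12, adjusted p = 0.00228) and from 16.9, 19.1 and 16.8 to 17.4, 16.3 and 20.96 in NCI-H23, where it was not called (log2 fold change -0.11, adjusted p = 0.336). The difference was 0.77 ± 0.15 (adjusted p = 0.0019). The second death receptor gene, *TNFRSF10B*, rose by 1.24 (adjusted p = 6.63e-06) in A549 and 1.37 (adjusted p = 2.27e-07) in NCI-H23, and the decoy receptor gene *TNFRSF10C* by 1.43 (adjusted p = 4.51e-05) and 1.63 (adjusted p = 0.0118). In NCI-H23 *TNFRSF10C* had a control mean of 1.09 TPM, near the filter, and its log2 fold change ranged from 1.09 to 1.98 under the alternatives. *FAS*, the gene of another death receptor, rose by 1.63 (adjusted p = 2.34e-05) in A549 and 1.37 (adjusted p = 0.0131) in NCI-H23, where it was 0.88 without Control KD replicate 1. *TRIAP1*, whose product opposes apoptosis, went from 55.8, 60.7 and 46.6 to 90.02, 85.6 and 92.8 TPM in A549 (log2 fold change 0.65 ± 0.14, adjusted p = 0.00605) and from 37.3, 45.2 and 40.6 to 41.0, 37.3 and 42.1 in NCI-H23 (log2 fold change -0.19, adjusted p = 0.103), a difference of 0.83 ± 0.17 (adjusted p = 0.00277).

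*PHLDA3*, whose product inhibits AKT, had the larger fold change in NCI-H23. It went from 98.0, 99.0 and 97.6 to 192, 196 and 217 TPM in A549 (log2 fold change 0.96 ± 0.10, adjusted p = 5.07e-05) and from 5.08, 5.88 and 5.38 to 16.9, 18.2 and 16.8 in NCI-H23 (log2 fold change 1.497 ± 0.15, adjusted p = 1.53e-05). The difference of -0.54 ± 0.17 (adjusted p = 0.0468) was at the edge of the threshold and was lost without A549 Control KD replicate 1 or 2, or without A549 *TRA2A/B* DKD replicate 1, 2 or 3, or without NCI-H23 Control KD replicate 1, 2 or 3, or without NCI-H23 *TRA2A/B* DKD replicate 1 or 2 (adjusted p 0.0577 to 0.113). It was also lost with a pseudocount of 0.5 or 1 and without the filter on low values, and with quantile normalization it was -0.28. *APAF1*, the scaffold of the apoptosome, and *CYFIP2* rose in NCI-H23, by 0.66 (adjusted p = 0.00336) and 1.14 (adjusted p = 0.0114). Their A549 values were 0.29 (adjusted p = 0.19) and 0.20 (adjusted p = 0.446), and the differences of -0.36 (adjusted p = 0.287) and -0.95 (adjusted p = 0.101) were not called. *BAX*, a pore-forming BCL2 family gene that was abundant in all controls, was called in neither line, with 0.41 (95% interval 0.05 to 0.77) in A549 and -0.03 (95% interval -0.30 to 0.24) in NCI-H23.

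Of the 4 genes of DNA repair and nucleotide supply, 3 rose in each line, and *DDB2* fell in NCI-H23. *XPC* and *DDB2* both encode sensors of nucleotide excision repair. *XPC* went from 42.6, 41.8 and 42.4 to 92.8, 96.5 and 105 TPM in A549 (log2 fold change 1.13 ± 0.10, adjusted p = 2.2e-05) and from 20.2, 16.8 and 16.5 to 27.6, 24.5 and 30.9 in NCI-H23 (log2 fold change 0.47 ± 0.11, adjusted p = 0.00537), a difference of 0.66 ± 0.15 (adjusted p = 0.00653) that was lost when no other group entered the fit. *DDB2*, one of the genes with a complete p53 motif, held 110.5, 106 and 123 TPM in the A549 controls and 121, 123 and 144 in the DKD, with overlap (log2 fold change 0.11, adjusted p = 0.356). In NCI-H23 it fell from 49.1, 54.8 and 48.0 to 42.4, 35.1 and 40.4 TPM (log2 fold change -0.52 ± 0.07, adjusted p = 0.000239), and the difference was 0.64 ± 0.11 (adjusted p = 0.000739). *POLH*, the gene of translesion polymerase eta, rose by 1.37 (adjusted p = 6.53e-05) and 0.78 (adjusted p = 0.00122). *RRM2B*, a ribonucleotide reductase subunit gene, rose by 0.78 (adjusted p = 0.0089) and 1.31 (adjusted p = 4.83e-06), and in A549 the call was lost when no other group entered the fit.

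Of the 7 genes of redox control, metabolism and mitochondria, 5 rose in A549 and 4 of 6 tested in NCI-H23. *TP53I3*, highest in the A549 controls, held 197, 213 and 249 TPM in the A549 DKD and overlapped with its controls (log2 fold change 0.10 ± 0.17, adjusted p = 0.702). In NCI-H23 it reached 64.0, 44.5 and 52.4 TPM (log2 fold change 1.76 ± 0.16, adjusted p = 8.11e-06), still below every A549 control and DKD library. The difference of -1.66 ± 0.24 (adjusted p = 0.000139) was the largest in favour of NCI-H23. *SESN2*, a sestrin gene that responds to p53 and to ATF4, went from 7.42, 7.12 and 8.58 to 51.1, 52.95 and 50.8 TPM in A549 (log2 fold change 2.65 ± 0.13, adjusted p = 5.01e-07). In NCI-H23 it went from 6.06, 8.21 and 7.73 to 89.7, 92.7 and 96.1 TPM (log2 fold change 3.501 ± 0.10, adjusted p = 7.36e-09), and the difference was -0.85 ± 0.15 (adjusted p = 0.000792). *SESN1* rose by 1.46 (adjusted p = 0.00118) and 1.57 (adjusted p = 0.000129), and *FDXR*, the gene of a mitochondrial reductase, by 1.51 (adjusted p = 2.36e-06) and 1.37 (adjusted p = 2.1e-07).

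*TP53INP1*, a stress gene whose product binds p53 kinases, rose in A549 from 4.16, 4.11 and 5.21 to 15.8, 13.2 and 13.4 TPM (log2 fold change 1.56 ± 0.14, adjusted p = 1.79e-05) and was not tested in NCI-H23, where it held 0.567, 0.542 and 0.995 TPM in the controls and 3.91, 4.02 and 4.62 in the DKD. *SPATA18*, a gene of mitochondrial quality control, rose in A549 (log2 fold change 1.05 ± 0.21, adjusted p = 0.00346), and its NCI-H23 value of 1.05 ± 0.43 was not called (adjusted p = 0.0726). *CMBL*, a hydrolase gene, was called in neither line, at 0.27 ± 0.28 in A549 and -0.23 ± 0.10 in NCI-H23.

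The RNA-binding and the secreted target both rose in each line. *GDF15*, a secreted cytokine of the TGF-beta family that responds to p53 and to ATF4 with CHOP, went from 89.8, 82.2 and 57.2 to 352, 375 and 471 TPM in A549 (log2 fold change 2.32 ± 0.21, adjusted p = 2.12e-05). In NCI-H23 it went from 7.29, 10.8 and 11.0 to 186, 145 and 176 TPM, the largest rise of the targets there (log2 fold change 3.97 ± 0.16, adjusted p = 4.91e-08). The difference was -1.65 ± 0.28 (adjusted p = 0.000564). The NCI-H23 DKD libraries nevertheless stayed below all 3 of A549. *ZMAT3*, the gene of an RNA-binding zinc finger protein with a complete p53 motif in an intron, rose by 1.00 (adjusted p = 0.00442) in A549 and 1.55 (adjusted p = 7.86e-06) in NCI-H23.

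The double knockdown response was more than the sum of the single ones for 24 of 35 targets in A549, where 5.84% of all genes were called in that direction, and for 13 of 34 in NCI-H23, where 8.23% were. No target had a called departure below 0, and 11 genes had one in both lines. The departure, DKD minus both single knockdowns plus control, was 3.17 ± 0.37 (adjusted p = 0.000373) for *MDM2* in A549 and 1.37 ± 0.19 (adjusted p = 0.000588) in NCI-H23. The A549 value of *MDM2* was the largest there in the main fit, and its *TRA2A* KD and *TRA2B* KD libraries held 69.7, 55.5 and 57.0 and 68.6, 70.8 and 64.5 TPM. The controls, of which replicate 3 was the high one for *MDM2*, enter the departure with a plus sign. Under the alternatives the A549 departure of *MDM2* ranged from 2.84 to 3.51. For *CDKN1A* it was 1.46 ± 0.16 (adjusted p = 0.000256) in A549 and 1.33 ± 0.10 (adjusted p = 1.79e-05) in NCI-H23. *GDF15* had the largest departure in NCI-H23 at 3.10 ± 0.23 (adjusted p = 1.51e-05), with 15.6, 11.8 and 18.9 TPM in *TRA2A* KD and 12.1, 11.8 and 11.5 in *TRA2B* KD. *GADD45A* and *AEN* departed by 2.08 (adjusted p = 0.00693) and 1.76 (adjusted p = 3.27e-05) in A549, and their NCI-H23 values were -0.11 (adjusted p = 0.8) and 0.05 (adjusted p = 0.7). Leaving out 1 library gave 12 to 16 such genes in NCI-H23 and 21 to 29 in A549, with 29 when Control KD replicate 3 was omitted. In A549 the calls of *PHLDA3*, *APAF1*, *ZMAT3* and *FBXO22* were among those lost, *PHLDA3* without Control KD replicate 1 or 2, or without *TRA2A* KD replicate 1, 2 or 3, or without *TRA2B* KD replicate 1, 2 or 3, or without *TRA2A/B* DKD replicate 1, 2 or 3 (adjusted p 0.0512 to 0.0896), *APAF1* without *TRA2A* KD replicate 1 or 3, or without *TRA2B* KD replicate 1 or 3, or without *TRA2A/B* DKD replicate 1, 2 or 3 (adjusted p 0.0507 to 0.0867), *ZMAT3* without *TRA2B* KD replicate 2, or without *TRA2A/B* DKD replicate 1 (adjusted p 0.0519 to 0.054) and *FBXO22* without *TRA2B* KD replicate 1 (adjusted p = 0.0516). In NCI-H23 that of *PPM1D* was lost without Control KD replicate 1 or 2, or without *TRA2A* KD replicate 3, or without *TRA2B* KD replicate 3, or without *TRA2A/B* DKD replicate 2 or 3 (adjusted p 0.053 to 0.0654).

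Other genes of the p53 pathway moved beside the targets in the DKD. Of 45 further p53 targets, 23 of 43 rose and 2 fell in A549, and 14 of 41 rose and 7 fell in NCI-H23, with medians of 0.64 and 0.16. Over all genes, 30.6% were called in A549 (14.3% rose) and 43.2% in NCI-H23 (20.0% rose). The largest in A549 were *ATF3* (4.51, adjusted p = 1.7e-07) and *SERTAD1* (2.65, adjusted p = 1.09e-05). The difference between the lines was called for 13 of these 41 in favour of A549 (6.77% of all genes) and for 3 in favour of NCI-H23 (5.39%). Of 21 cell cycle genes that p21 lowers through the DREAM complex, 19 fell and 0 rose in each line, with medians of -1.51 in A549 and -0.87 in NCI-H23. Of all genes, 30.6% and 43.2% were called in either direction, where 14.3% and 20.0% of all genes rose and the rest of the called genes fell. The fall was larger in A549 for 13 of 21, where 5.39% of all genes were called in that direction, and larger in NCI-H23 for 0 (6.77%). *CCNA2* (-2.05, adjusted p = 2.54e-06), *MYBL2* (-2.05, adjusted p = 1.23e-06) and *BUB1B* (-1.93, adjusted p = 1.24e-06) fell most in A549.

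Targets of the stress factor ATF4 moved with the p53 targets in the same libraries. Of 15 ATF4 targets, 10 rose and 0 fell in A549 (median 1.40), where 14.3% of all genes rose. In NCI-H23 12 of 14 rose and 1 fell (median 1.11), where 20.0% of all genes rose. Their summed level was 1718 to 1796 TPM in the A549 controls and 3570.3 to 3706 in the DKD, and 672 to 796 and 1644 to 1858 TPM in NCI-H23, and none of the 15 was at 0 in any group of these lines. *DDIT3*, the gene of CHOP, led in A549 (4.57, adjusted p = 7.85e-06), with *CHAC1* (4.01, adjusted p = 4.63e-07) and *TRIB3* (3.04, adjusted p = 1.7e-07). The difference between the lines was called for 6 ATF4 targets in favour of A549 (6.77% of all genes) and for 1 in favour of NCI-H23 (5.39%). *GDF15*, *SESN2*, *PMAIP1*, *BBC3* and *TNFRSF10B* are known to respond to ATF4 or CHOP as well as to p53. In *TRA2B* KD the summed level of the ATF4 targets was above the controls in A549 (1843 to 1864 TPM against 1718 to 1796) and NCI-H23 (864 to 880 against 672 to 796). In *TRA2A* KD it overlapped with the controls in A549 (1795 to 1811) and NCI-H23 (783 to 859). After *TRA2B* KO it overlapped with the controls in LN229 and LN319. This sum was also above the controls after *TRA2A* KO in Luc cells of LN229 (2183 to 2279 TPM against 1365 to 1976) and LN319 (1245 to 1289 against 914 to 1016). After *TRA2A* KO in TRA2B-OE cells it was above in LN229 (2367 to 2643 against 1772 to 2076) and overlapped in LN319 (1050 to 1212 against 905 to 1054). *GADD45A* was called higher in each of these *TRA2A* KO groups, including the LN319 TRA2B-OE cells where the sum overlapped, as described below. It was not called in the NCI-H23 DKD or in *TRA2B* KD of either lung line, where the sum was above the controls. The part of ATF4 in the values of the p53 targets was not tested. The mitochondrial share of TPM was 17.6 to 23.4% in the A549 DKD and 18.0 to 21.6% in its controls, and 19.3 to 28.3% and 23.1 to 31.9% in NCI-H23. In NCI-H23 *TRA2B* KD it was lower than in every control, at 17.8 to 19.3%.

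Single knockdown left the p53 targets nearly uncalled in the lung lines. In A549, 0 of 35 were called in *TRA2A* KD by limma (1 had an unadjusted p under 0.05, and 0.207% of all genes were called), and the smallest adjusted p was 0.431. Counts at an unadjusted p under 0.05, here and below, stand without the share of all genes and cannot show an excess. In A549 *TRA2B* KD, 1 was called, where 0.341% of all genes were. This was the decoy receptor gene *TNFRSF10C*, which went from 4.73, 5.33 and 7.37 to 9.87, 8.89 and 10.9 TPM (log2 fold change 0.87 ± 0.15, adjusted p = 0.0396). The call was lost without Control KD replicate 1 or 2, or without *TRA2B* KD replicate 1, 2 or 3 (adjusted p 0.0622 to 0.186) and with the TPM as deposited, and the count was 2 without Control KD replicate 3. *CDKN1A* held 136, 155 and 155 TPM in *TRA2A* KD and 217, 212 and 207 in *TRA2B* KD, where all 3 libraries lay above the controls and the adjusted p was 0.167 (log2 fold change 0.44). The libraries of *TRA2B* KD lay above the controls for 7 targets in A549 (8.03% of all genes).

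In NCI-H23, 0 of 34 were called in *TRA2A* KD by limma (0.976% of all genes were) and 0 in *TRA2B* KD (0.196%). At an unadjusted p under 0.05 there were 9 and 9, with no share of all genes to set beside them. Without *TRA2A* KD replicate 2 the count of called targets in *TRA2A* KD was 1. The smallest adjusted p-values were 0.0898 for *GDF15* in *TRA2A* KD (log2 fold change 0.68) and 0.167 for *PHLDA3* in *TRA2B* KD (0.64). The libraries of *TRA2B* KD lay above the controls for 17 of all 35 targets, tested or not, where 21.1% of all genes tested did so. The mitochondrial share of these libraries was also below that of the controls (its part in these values was not tested). *CDKN1A* held 94.2, 89.0 and 104 TPM in *TRA2A* KD and 108, 111 and 107 in *TRA2B* KD, and *MDM2* held 60.9, 76.9 and 65.4 and 58.6, 54.3 and 47.8. The difference between A549 and NCI-H23 was called for 0 of 34 targets in *TRA2A* KD (0.0969% of all genes) and for 0 in *TRA2B* KD (0.0554%), with 7 and 4 at an unadjusted p under 0.05. For *CDKN1A* the interval of that difference was -0.46 to 0.09 in *TRA2A* KD and -0.05 to 0.49 in *TRA2B* KD.

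In LN229, single knockout called few targets. *TRA2A* KO called 1 of 33, where 3.68% of all genes were called. This was *GADD45A*, which went from 155, 201 and 199.7 to 286, 272 and 255 TPM (log2 fold change 0.57 ± 0.11, adjusted p = 0.0184), and the call was lost without Control KO replicate 1, or without *TRA2A* KO replicate 1, 2 or 3 (adjusted p 0.05004 to 0.0636). The count of called targets was then 0, or 1 without *TRA2A* KO replicate 1, and it was 0 when no other group entered the fit. All 3 knockout libraries lay above the controls. *TRA2B* KO called 4, all lower, where 0.568% of all genes were called. *GADD45A* fell to 118, 120.2 and 117 TPM (log2 fold change -0.68 ± 0.11, adjusted p = 0.0252). *AEN* fell from 63.7, 82.7 and 89.4 to 49.4, 51.5 and 51.7 TPM (log2 fold change -0.66 ± 0.12, adjusted p = 0.0346). *CDKN1A* fell from 329, 330.3 and 312 to 254, 236 and 229 TPM (log2 fold change -0.48 ± 0.07, adjusted p = 0.019), and *PLK3* from 12.9, 14.3 and 15.6 to 9.12, 11.4 and 11.0 (log2 fold change -0.49 ± 0.09, adjusted p = 0.0418). The 3 knockout libraries lay below the 3 controls for 11 of all 35 targets, tested or not, these 4 included, and for 9.31% of all genes tested. Each call depended on single libraries. That of *CDKN1A* was lost without Control KO replicate 2, or without *TRA2B* KO replicate 2 or 3 (adjusted p 0.0976 to 0.102), that of *GADD45A* without Control KO replicate 2 or 3, or without *TRA2B* KO replicate 1, 2 or 3 (adjusted p 0.0554 to 0.134), that of *AEN* without Control KO replicate 2 or 3, or without *TRA2B* KO replicate 1, 2 or 3 (adjusted p 0.0726 to 0.172) and that of *PLK3* without Control KO replicate 2 or 3, or without *TRA2B* KO replicate 1, 2 or 3 (adjusted p 0.0916 to 0.201). All 4 were also lost without the filter on low values and when no other group entered the fit. The count of called targets was 11 without Control KO replicate 1, 1 without Control KO replicate 3 or *TRA2B* KO replicate 1, and 0 without Control KO replicate 2 or *TRA2B* KO replicate 2 or 3.

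In LN319 single knockout called more targets, and more of all genes. *TRA2A* KO raised 3 and lowered 7 of 33, where 14.3% of all genes were called. *GADD45A* rose from 155, 152 and 142 to 235, 213 and 216 TPM (log2 fold change 0.60 ± 0.07, adjusted p = 0.000261) and *PLK2* from 57.1, 58.5 and 73.8 to 98.6, 85.0 and 98.3 (log2 fold change 0.62 ± 0.11, adjusted p = 0.00241). The repair genes *DDB2* and *XPC* fell, *DDB2* from 45.6, 38.0 and 37.4 to 24.2, 25.5 and 23.9 TPM (log2 fold change -0.67 ± 0.08, adjusted p = 0.000388) and *XPC* from 29.9, 31.7 and 29.0 to 23.3, 21.9 and 20.4 (log2 fold change -0.43 ± 0.05, adjusted p = 0.000305). *TP53INP1* fell from 11.8, 12.04 and 11.3 to 7.99, 6.93 and 7.45 TPM (log2 fold change -0.61 ± 0.07, adjusted p = 0.000269). These 5 calls held with every library left out in turn, and none of these groups overlapped. The other 5 calls were lost when single libraries were left out. *PLK3* went from 15.7, 17.4 and 15.9 to 20.4, 20.0 and 17.4 TPM (log2 fold change 0.27 ± 0.08, adjusted p = 0.0292), lost without Control KO replicate 1, 2 or 3, or without *TRA2A* KO replicate 1 or 2 (adjusted p 0.0512 to 0.0906). *BTG2* went from 9.39, 8.52 and 7.56 to 6.08, 6.23 and 5.08 TPM (log2 fold change -0.50 ± 0.13, adjusted p = 0.0246), lost without Control KO replicate 1 or 2, or without *TRA2A* KO replicate 1 or 3 (adjusted p 0.0586 to 0.0948). *FBXW7* went from 16.0, 16.4 and 16.0 to 15.1, 11.4 and 11.6 TPM (log2 fold change -0.32 ± 0.08, adjusted p = 0.0229), lost without Control KO replicate 1, 2 or 3, or without *TRA2A* KO replicate 2 or 3 (adjusted p 0.0542 to 0.0868). These shifts were small beside those of the DKD. *FAS* went from 7.91, 7.70 and 7.28 to 7.15, 4.02 and 4.80 TPM (log2 fold change -0.51 ± 0.16, adjusted p = 0.0463), lost without Control KO replicate 1, 2 or 3, or without *TRA2A* KO replicate 2 or 3 (adjusted p 0.0813 to 0.16) and at -0.33 without *TRA2A* KO replicate 2, and *CMBL* from 4.35, 5.22 and 6.49 to 3.55, 3.64 and 3.52 (log2 fold change -0.52 ± 0.16, adjusted p = 0.0467), lost without Control KO replicate 2 or 3, or without *TRA2A* KO replicate 1, 2 or 3 (adjusted p 0.0873 to 0.162). *FAS*, *CMBL* and *PLK3* were also lost with no filter, with quantile normalization and, like *FBXW7*, when no other group entered the fit. The count was 6 without Control KO replicate 1 or 2 or *TRA2A* KO replicate 2 or 3.

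*TRA2B* KO in LN319 raised 8 and lowered 8 of 33 targets, a rate near the 42.6% of all genes that were called. The lower genes included *CDKN1A*, from 36.4, 35.8 and 32.0 to 23.1, 25.4 and 26.8 TPM (log2 fold change -0.57 ± 0.07, adjusted p = 8.22e-05), and *GADD45A*, to 108, 117 and 101 (log2 fold change -0.57 ± 0.07, adjusted p = 8.14e-05). *TRIAP1* fell from 25.9, 23.7 and 28.2 to 17.8, 17.5 and 18.0 TPM (log2 fold change -0.65 ± 0.12, adjusted p = 0.00123), *BAX* from 156, 149.9 and 152 to 116, 125 and 127 (log2 fold change -0.42 ± 0.08, adjusted p = 0.00171) and *PPM1D* from 24.8, 26.6 and 25.6 to 18.2, 24.7 and 20.3 (log2 fold change -0.40 ± 0.08, adjusted p = 0.00229). These 5 calls held with every library left out, and quantile normalization moved *BAX* to -0.25. *AEN* went from 14.3, 14.6 and 14.4 to 12.2, 13.1 and 13.5 TPM (log2 fold change -0.27), *ZMAT3* from 9.002, 10.7 and 10.2 to 8.35, 8.90 and 9.50 (-0.27) and *TNFRSF10C* from 7.15, 7.69 and 6.93 to 6.42, 5.38 and 6.94 (-0.33). The *AEN* groups did not overlap, while those of *ZMAT3* and *TNFRSF10C* did. Those calls (adjusted p = 0.0121, 0.0226 and 0.0499) were lost for *AEN* without *TRA2B* KO replicate 1 (adjusted p = 0.051), for *ZMAT3* without Control KO replicate 2 or 3, or without *TRA2B* KO replicate 1 or 2 (adjusted p 0.0618 to 0.0836) and for *TNFRSF10C* without Control KO replicate 1, 2 or 3, or without *TRA2B* KO replicate 1 or 2 (adjusted p 0.0721 to 0.21). With the TPM as deposited all 3 calls were lost and *AEN* and *ZMAT3* were both at -0.16. *TNFRSF10C* was also lost with a pseudocount of 0.5 or 1 and was at -0.21 without *TRA2B* KO replicate 2.

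The 8 genes that rose in LN319 *TRA2B* KO moved by at most 0.42 on the log2 scale. *TNFRSF10B* went from 72.2, 89.2 and 76.8 to 100.4, 103 and 99.7 TPM (log2 fold change 0.25 ± 0.06, adjusted p = 0.0058) and *APAF1* from 8.07, 8.94 and 9.27 to 11.7, 11.8 and 12.1 (log2 fold change 0.33 ± 0.08, adjusted p = 0.00731), and both calls held with every library left out. *MDM2* went from 44.5, 41.8 and 44.4 to 60.2, 56.8 and 53.4 TPM (log2 fold change 0.27 ± 0.08, adjusted p = 0.0201), a direction opposite to that of *CDKN1A*. *BBC3* went from 7.07, 7.40 and 5.18 to 8.72, 9.81 and 9.64 TPM (log2 fold change 0.42 ± 0.13, adjusted p = 0.0196). *BTG2* reached 12.1, 11.2 and 12.8 TPM (log2 fold change 0.39 ± 0.13, adjusted p = 0.0305), the reverse of its direction in *TRA2A* KO. *XPC* reached 36.9, 37.4 and 35.8 TPM (log2 fold change 0.17 ± 0.05, adjusted p = 0.0146), also the reverse of its direction there. *FDXR* went from 40.9, 39.6 and 38.1 to 55.7, 49.0 and 51.9 TPM (log2 fold change 0.29 ± 0.09, adjusted p = 0.0152) and *POLH* from 13.4, 15.5 and 15.7 to 18.8, 21.01 and 17.1 (log2 fold change 0.24 ± 0.09, adjusted p = 0.0455). All 3 knockout libraries lay above the controls for 12 of all 35 targets, tested or not, these 8 included, and for 33.1% of all genes tested. The call of *MDM2* was lost without Control KO replicate 2, or without *TRA2B* KO replicate 1 (adjusted p 0.075 to 0.0803), that of *BBC3* without Control KO replicate 3, or without *TRA2B* KO replicate 2 (adjusted p 0.0581 to 0.0869), where it was 0.28 without Control KO replicate 3, and that of *BTG2* without Control KO replicate 2 or 3, or without *TRA2B* KO replicate 1 or 3 (adjusted p 0.0706 to 0.11). The call of *XPC* was lost without Control KO replicate 3 (adjusted p = 0.0532), that of *FDXR* without *TRA2B* KO replicate 1 (adjusted p = 0.0652) and that of *POLH* without Control KO replicate 1 or 2, or without *TRA2B* KO replicate 1 or 2 (adjusted p 0.0714 to 0.175). These 6 calls were also lost without the filter on low values. *MDM2* was at 0.41 with the length and GC trend removed, and *TNFRSF10B* and *XPC* were at 0.41 and 0.27 with quantile normalization. With the TPM as deposited, 10 targets rose and 5 fell. The mitochondrial share of TPM was 18.3 to 20.6% in these knockout libraries and 12.1 to 12.8% in their controls, and its part in these values was not tested. The count was 9 without *TRA2B* KO replicate 1.

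**Figure D5:**
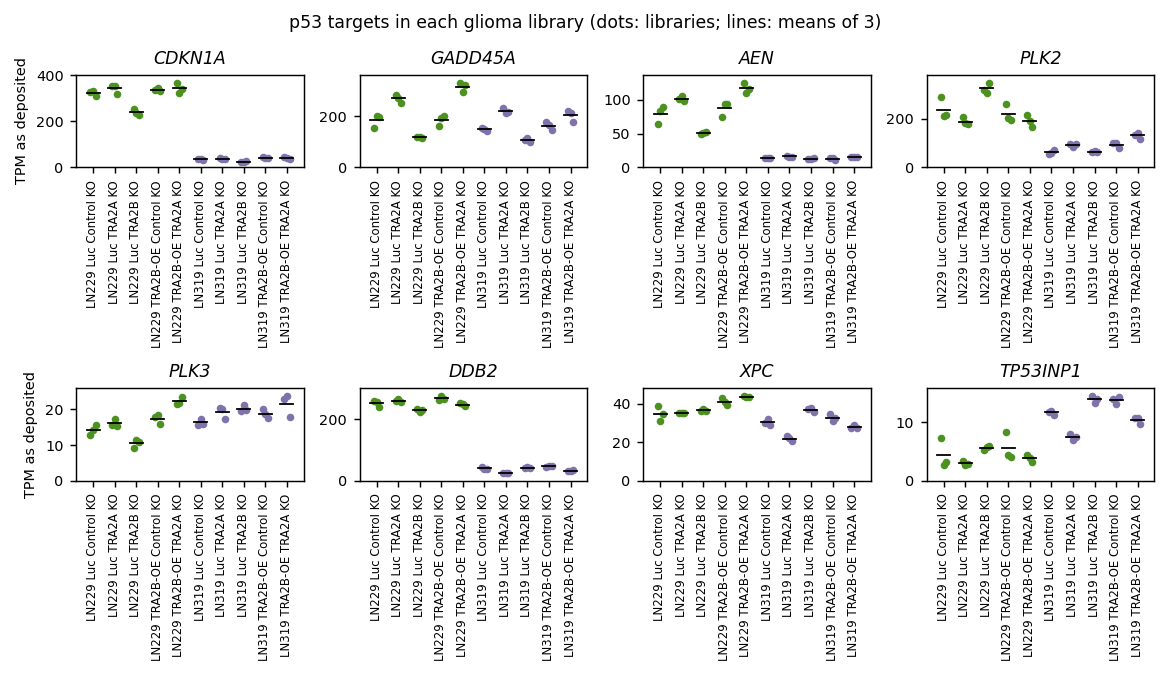
TPM as deposited (y, from 0) of 8 p53 targets in each of the 30 glioma libraries by condition (x), with dots for libraries and lines for means of 3. *GADD45A* is above its control after *TRA2A* KO and below it after *TRA2B* KO in both lines, *CDKN1A* is lower after *TRA2B* KO in both, and *DDB2*, *XPC* and *TP53INP1* are lower after *TRA2A* KO in LN319.

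*GADD45A* was thus the target with opposite calls after *TRA2A* KO and *TRA2B* KO in both glioma lines, and *CDKN1A* was called lower after *TRA2B* KO in both. In LN229 each of these calls was lost when single libraries were left out and when no other group entered the fit. The comparisons within a line share their control libraries.

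Overexpression of *TRA2B* moved few targets. In LN229, TRA2B-OE with control guides called 0 of 33 by limma, where 1.03% of all genes were called and 5 targets had an unadjusted p under 0.05, and the count was 1 without Luc Control KO replicate 1. In LN319 it called 2, where 4.31% were. *PLK2* rose to 100.04, 100.1 and 81.4 TPM (log2 fold change 0.49 ± 0.11, adjusted p = 0.0277), lost without Luc Control KO replicate 1 or 2, or without TRA2B-OE Control KO replicate 1 or 2 (adjusted p 0.0725 to 0.0996), and *TNFRSF10A* fell from 19.0, 23.3 and 20.8 to 17.0, 15.9 and 18.0 TPM (log2 fold change -0.39 ± 0.08, adjusted p = 0.026), lost without Luc Control KO replicate 2 or 3, or without TRA2B-OE Control KO replicate 1 or 2 (adjusted p 0.0699 to 0.137). The LN319 count was 5 without TRA2B-OE Control KO replicate 3, 1 without Luc Control KO replicate 1 or 3, and 0 without Luc Control KO replicate 2 or TRA2B-OE Control KO replicate 1 or 2. The libraries of these 2 genes did not overlap between the groups. *TRA2A* KO within TRA2B-OE cells raised *GADD45A* in LN229 from 164, 194 and 203 to 331, 296 and 324 TPM (log2 fold change 0.74 ± 0.11, adjusted p = 0.00309) and *SESN2* from 17.5, 19.7 and 17.8 to 25.1, 23.7 and 23.7 (log2 fold change 0.38 ± 0.08, adjusted p = 0.0184), where 6.07% of all genes were called. The *GADD45A* call held with every library left out, and that of *SESN2* was lost without TRA2B-OE Control KO replicate 1, or without TRA2B-OE *TRA2A* KO replicate 3 (adjusted p 0.0614 to 0.0616).

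In LN319 the same comparison called 4 of 33 targets, where 2.77% of all genes were called. *GADD45A* went from 177, 165 and 146 to 219.6, 215 and 179.7 TPM (log2 fold change 0.39 ± 0.07, adjusted p = 0.0161) and *PLK2* from 100.04, 100.1 and 81.4 to 134, 144 and 119 (log2 fold change 0.55 ± 0.11, adjusted p = 0.0217). *DDB2* went from 45.9, 49.0 and 48.0 to 31.5, 32.0 and 33.8 TPM (log2 fold change -0.50 ± 0.08, adjusted p = 0.0138) and *TP53INP1* from 13.96, 13.2 and 14.4 to 10.7, 10.7 and 9.77 (log2 fold change -0.35 ± 0.07, adjusted p = 0.0254). The groups did not overlap for these 4 genes, and the directions were those of *TRA2A* KO in Luc cells. The count was 0 without TRA2B-OE Control KO replicate 3 or TRA2B-OE *TRA2A* KO replicate 1 or 2, and the call of *TP53INP1* was also lost without TRA2B-OE *TRA2A* KO replicate 3 (adjusted p from 0.0519 to 0.0885). The test of whether overexpression changed the response to *TRA2A* KO called 0 of 33 targets in LN229 and 0 in LN319 (0.00% and 0.0207% of all genes), with 4 and 4 at an unadjusted p under 0.05.

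The single-loss responses of A549 and the glioma lines were also compared gene by gene, as A549 minus the other line. For *TRA2A* loss the difference was called for 0 targets against LN229, where 2.00% of all genes were called, and that count was 1 without A549 Control KD replicate 3 or LN229 Control KO replicate 3, 2 without A549 Control KD replicate 1 and 3 without A549 Control KD replicate 2. Against LN319 it was called for 3, where 3.21% were. These were *DDB2* with 0.69 ± 0.12 (adjusted p = 0.00264), *TP53INP1* with 0.59 ± 0.12 (adjusted p = 0.0113) and *XPC* with 0.40 ± 0.11 (adjusted p = 0.041). *DDB2* held 105, 106 and 98.6 TPM in A549 *TRA2A* KD, *XPC* 33.7, 42.7 and 36.7 and *TP53INP1* 3.81, 4.20 and 3.93. None of the 3 was called in A549 and each was called lower in LN319. The *XPC* call was lost without A549 Control KD replicate 3, or without A549 *TRA2A* KD replicate 2 or 3, or without LN319 Luc Control KO replicate 1, 2 or 3, or without LN319 Luc *TRA2A* KO replicate 1, 2 or 3 (adjusted p 0.0533 to 0.0964), all 3 calls were lost when no other group entered the fit, those of *XPC* and *TP53INP1* also with the TPM as deposited, and the count was 5 without A549 Control KD replicate 2.

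For *TRA2B* loss the difference was called for 3 targets against LN229, where 0.704% of all genes were called, and for 9 against LN319, where 23.7% were. *CDKN1A* differed from LN229 by 0.92 ± 0.13 (adjusted p = 0.000659) and from LN319 by 1.02 ± 0.13 (adjusted p = 5.16e-05), and both calls held with every library left out, while that against LN229 was lost when no other group entered the fit (adjusted p = 0.0916), as were those of *GADD45A* and *AEN* against LN229, which were also lost with the length and GC trend removed. *GADD45A* held 77.1, 77.1 and 66.7 TPM in A549 *TRA2B* KD and differed by 1.35 ± 0.31 (adjusted p = 0.0403) and 1.24 ± 0.29 (adjusted p = 0.00532). *AEN* held 71.5, 65.3 and 71.5 TPM and differed by 0.75 ± 0.15 (adjusted p = 0.0196) and 0.36 ± 0.11 (adjusted p = 0.0215). In A549 itself neither *GADD45A* nor *AEN* nor *CDKN1A* was called in *TRA2B* KD. Against LN229 the *GADD45A* call was lost without A549 *TRA2B* KD replicate 1, 2 or 3, or without LN229 Luc Control KO replicate 2 or 3, or without LN229 Luc *TRA2B* KO replicate 1, 2 or 3 (adjusted p 0.0665 to 0.129), and that of *AEN* without A549 *TRA2B* KD replicate 1 or 3, or without LN229 Luc Control KO replicate 2 or 3, or without LN229 Luc *TRA2B* KO replicate 2 or 3 (adjusted p 0.052 to 0.0807). The LN229 count was 5 without A549 Control KD replicate 1, 8 without A549 Control KD replicate 2, 6 without LN229 Control KO replicate 1, and 1 without A549 TRA2B KD replicate 1 or 3, LN229 Control KO replicate 2 or 3 or LN229 TRA2B KO replicate 2 or 3.

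The remaining 6 differences from LN319 lay between -0.61 and 1.19. They were 0.75 ± 0.19 (adjusted p = 0.00687) for *BAX* (A549 *TRA2B* KD 400.4, 361 and 342 TPM, controls 321, 358 and 262), 1.19 ± 0.19 (adjusted p = 0.000406) for *TNFRSF10C* and 0.63 ± 0.12 (adjusted p = 0.00178) for *PPM1D* (12.4, 12.3 and 10.2 TPM). *TRIAP1* differed by 0.93 ± 0.19 (adjusted p = 0.00251), with 60.9, 64.4 and 59.7 TPM in A549 *TRA2B* KD. *CCNG1* differed by 0.40 ± 0.13 (adjusted p = 0.0336), with 42.7, 48.5 and 62.4 TPM in the A549 controls, 61.9, 63.8 and 61.1 in A549 *TRA2B* KD, 23.7, 25.4 and 29.7 in the LN319 controls and 29.6, 27.1 and 27.5 in LN319 *TRA2B* KO. *APAF1* was lower in A549 by this measure, at -0.61 ± 0.17 (adjusted p = 0.014), from 8.56, 8.33 and 13.05 to 6.80, 8.74 and 7.21 TPM in A549. The *CCNG1* call was lost without A549 Control KD replicate 1, or without A549 *TRA2B* KD replicate 1, 2 or 3, or without LN319 Luc Control KO replicate 3, or without LN319 Luc *TRA2B* KO replicate 2 or 3 (adjusted p 0.0502 to 0.11) and that of *AEN* without A549 *TRA2B* KD replicate 3, or without LN319 Luc *TRA2B* KO replicate 1 (adjusted p 0.0502 to 0.0587). Both, and *APAF1*, were lost when no other group entered the fit. *CCNG1* and *AEN* were also lost at a minimum of 5 TPM, with the TPM as deposited (0.20 for *CCNG1* and 0.16 for *AEN*) and with the length and GC trend removed (0.21 and 0.19), and *BAX* was at 0.45 with quantile normalization. With the TPM as deposited 6 differences were above 0 and 4 below, and with quantile normalization 8 and 4. Line, silencing method and time of collection cannot be told apart in these differences.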

How the data were processed

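Gene-level TPM, quantified with kallisto 0.48.0 on Gencode v34 (GRCh38), was deposited by the authors in 1 table per cell line, and these values were used. TPM keeps no read depth, so each library was treated alike, and a count test was not used. Within each line, log2(TPM + 0.1) was taken after trimmed-mean scaling (30% of ratios and 5% of abundances trimmed) for genes that reached 1 TPM in 4 or more libraries. A linear model was fitted with limma 3.58.1 (R 4.3.3, trended empirical Bayes), and p-values were Benjamini-Hochberg adjusted over all genes of a comparison. Differences between lines came from a joint fit of 2 lines over genes kept in both. The fit was run on simulated data with independent noise for each gene, which does not measure its error rate in these data. Tables and figures were made with Python 3.11.15. The 35 members and the lists (other p53 targets, DREAM genes, ATF4 targets, markers) were chosen with earlier results of these data known. Values per library are given for *CDKN1A*, *MDM2*, the 10 members with the smallest adjusted p in the DKD difference and members called in a single-loss comparison or difference. Of other lists, up to 3 called genes with the largest A549 DKD change are named, and some genes that this rule selects are not reported here. Genes outside that rule with values per library (*BBC3*, *XPC*, *TRIAP1*, *PHLDA3* and *TP53INP1* in the DKD) were chosen after their values were seen. Alternatives were 2 other pseudocounts, 2 other filters, no scaling, quantile normalization, a replicate block, a fold threshold, a length and GC trend, other sets of groups in the fit and each library left out in turn.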

Additional observations from a re-analysis of the deposited data

Results flagged for a closer look

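The difference between A549 and another line in the response to *TRA2* loss was called for 29 pairs of a gene and a comparison, with no explanation tested. Against LN229 and LN319, line, silencing method and time of collection cannot be told apart. Some of these calls were lost under many alternatives. That of *PHLDA3* in the DKD was lost under 16, *XPC* against LN319 under 15, *CCNG1* against LN319 under 13 and *GADD45A* against LN229 under 11, while *AEN* in the DKD was lost under 0. In the double knockdown the log2 fold change in A549 minus that in NCI-H23 was 2.82 for *GADD45A*, 1.75 for *PMAIP1*, 1.52 for *AEN*, 1.39 for *PPM1D* and 1.20 for *PLK2*. It was 0.83 for *TRIAP1*, 0.77 for *TNFRSF10A*, 0.73 for *BBC3*, 0.66 for *XPC* and 0.64 for *DDB2*. In the other direction it was -1.66 for *TP53I3*, -1.65 for *GDF15*, -0.85 for *SESN2* and -0.54 for *PHLDA3*.

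In *TRA2A* loss, A549 minus LN319 was 0.69 for *DDB2*, 0.59 for *TP53INP1* and 0.40 for *XPC*. In *TRA2B* loss, A549 minus LN229 was 1.35 for *GADD45A*, 0.92 for *CDKN1A* and 0.75 for *AEN*. In *TRA2B* loss, A549 minus LN319 was 1.24 for *GADD45A*, 1.19 for *TNFRSF10C*, 1.02 for *CDKN1A*, 0.93 for *TRIAP1* and 0.75 for *BAX*. It was 0.63 for *PPM1D*, 0.40 for *CCNG1*, 0.36 for *AEN* and -0.61 for *APAF1*.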

How the results depend on the processing

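Leaving the fold threshold aside, of 2813 values of called genes under the alternatives, 2531 kept their call, 282 lost it and 0 changed sign, and in the double knockdown 1118 of 1144 kept it. Of 469 counts of called targets, the fold threshold included, 384 stayed within 1.5 times, among them counts of 0 that stayed at 0. The median of all genes in the A549 double knockdown was 0.03, or 0.11 with the TPM as deposited and -0.02 with quantile normalization, and that of NCI-H23 was 0.02, 0.17 and -0.01, while higher and lower calls were 30 and 0, and 27 and 1, as deposited and 31 and 0, and 25 and 1, with quantile normalization. The differences between lines in the double knockdown were then 9 above and 4 below 0, and 13 above and 3 below.

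Requiring an absolute log2 fold change above 1 left 16 called targets in the NCI-H23 double knockdown, 7 in the double knockdown difference, 1 and 3 in the *TRA2B* loss differences from LN229 and LN319, and 0 in the *TRA2A* loss difference from LN319, in A549 *TRA2B* KD and in each glioma comparison that had calls. Without the filter, LN229 *TRA2B* KO gave 0, LN229 TRA2B-OE *TRA2A* KO 1, LN319 *TRA2B* KO 9 and LN319 TRA2B-OE 0. At a minimum of 5 TPM, LN229 TRA2B-OE *TRA2A* KO gave 5. As deposited, A549 *TRA2B* KD gave 0 and LN319 TRA2B-OE 1, the LN319 TRA2B-OE *TRA2A* KO calls were 1 higher and 2 lower, and the *TRA2A* loss difference from LN319 gave 1 above and 1 below 0. With the length and GC trend removed, A549 *TRA2B* KD gave 0, LN229 *TRA2A* KO 2 and LN229 TRA2B-OE *TRA2A* KO 5. When no other group entered the fit, 0 were called in A549 *TRA2B* KD, LN229 *TRA2A* KO, LN229 *TRA2B* KO, LN319 TRA2B-OE, LN319 TRA2B-OE *TRA2A* KO, and in the differences of *TRA2A* loss from LN319 and *TRA2B* loss from LN229, and there was 1 in LN229 TRA2B-OE *TRA2A* KO and 6 in LN319 *TRA2A* KO. One fit of all 4 lines gave 1 for *TRA2A* loss and 5 for *TRA2B* loss against LN229. Apart from the fewer samples in these fits and the added threshold, the cause was not tested.

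With each library left out in turn, counts ranged from 0 to 2 in A549 *TRA2B* KD, 0 to 1 in NCI-H23 *TRA2A* KD, 0 to 1 in LN229 *TRA2A* KO, 0 to 11 in LN229 *TRA2B* KO, 0 to 1 in LN229 TRA2B-OE and 1 to 3 in LN229 TRA2B-OE *TRA2A* KO. In LN319 they ranged from 6 to 7 in *TRA2A* KO, 9 to 15 in *TRA2B* KO, 0 to 5 in TRA2B-OE and 0 to 4 in TRA2B-OE *TRA2A* KO. The *TRA2A* loss differences gave 0 to 3 against LN229 and 2 to 5 against LN319, and the *TRA2B* loss differences 1 to 8 and 7 to 10.

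The labels give replicates a number and no shared culture or day. The deviations of same-numbered libraries from their group means had correlations of -0.15 to 0.13 in A549, -0.08 to 0.11 in NCI-H23, -0.09 to 0.21 in LN229 and -0.05 to 0.10 in LN319. Such correlations cannot show whether same-numbered libraries shared a culture or a day. With the number as a replicate block, A549 *TRA2B* KD gave 0 called targets, LN229 *TRA2A* KO 5, LN229 *TRA2B* KO 8, LN229 TRA2B-OE *TRA2A* KO 5 and the *TRA2A* loss difference from LN229 1. The block kept the other counts within 1.5 times. TPM keeps no depth, so what depth limits could not be assessed.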
